A study of Mus musculus with 8 samples.

Results

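The late cornified envelope (Lce) genes of mouse keratinocytes were followed on 17 probes, which are all the probes of the deposited array table whose gene symbol begins with Lce and a digit, out of 25697 probes in all. They stand for 14 Lce genes, of 21 in the RefSeq mouse gene table, and the other 7 (Lce6a, Lce1a1, Lce1j, Lce1k, Lce3d, Lce3e and Lce3f) have no level here and enter only the promoter counts. Both groups were C57Bl6 keratinocytes taken from embryonic skin at day 18.5 and cultured to confluence, and the labels name no further treatment. The first group was labelled Type I keratin KO, meaning a knockout of type I keratin genes, and the second was labelled wild type. Each genotype had 4 arrays, numbered 1, 2, 3 and 1.1, and the labels do not say how many embryos or litters gave the cells.

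Late cornified envelope proteins are small proteins that transglutaminases cross-link into the cornified envelope, the insoluble shell that replaces the plasma membrane of a keratinocyte as it becomes a corneocyte. Their genes lie side by side in the epidermal differentiation complex, a block that also holds loricrin, involucrin, filaggrin and the small proline-rich (Sprr) genes, and they are switched on late in differentiation. In human skin the LCE1 and LCE2 groups are known as genes of normal epidermis, while LCE3 genes are known for their induction after barrier injury and in psoriasis. In the order of the gene table Lce6a opens the row, a run of Lce1 genes comes next, the Lce3 genes follow, and Lce1m, also listed as Lce5a, closes the row.

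The promoters of 4 members are shown, picked by their values. Among the tested Lce genes, Lce3b and Lce3c had the lowest and Lce1c and Lce1d the highest mean differences between KO and wild type. None of the 4 passed the test over all genes, and Lce1d did not read higher on every KO array. Each sequence is the RefSeq promoter on assembly GRCm38.p6, from 250 bases before to 50 bases after the start of the gene, in the direction of transcription. Capitals mark matches to the motifs searched on both strands, which were the TATA box TATAAA, the AP-1 motif TGANTCA, the KLF factor motif CACCC, the CCAAT box, the antioxidant response element TGACNNNGC and the variant box ATAAAA. That variant was chosen after the sequences had been seen, and its matches can overlap those of the TATA box.
Lce3b (chr3:92932729-92933028, plus strand): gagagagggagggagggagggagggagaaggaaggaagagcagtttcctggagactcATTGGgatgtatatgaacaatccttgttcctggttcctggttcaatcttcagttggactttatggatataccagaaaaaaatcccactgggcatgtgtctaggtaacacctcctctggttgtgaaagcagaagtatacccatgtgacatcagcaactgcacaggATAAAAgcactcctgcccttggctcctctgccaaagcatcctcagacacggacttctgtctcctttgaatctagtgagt
Lce3c (chr3:92944236-92944535, plus strand): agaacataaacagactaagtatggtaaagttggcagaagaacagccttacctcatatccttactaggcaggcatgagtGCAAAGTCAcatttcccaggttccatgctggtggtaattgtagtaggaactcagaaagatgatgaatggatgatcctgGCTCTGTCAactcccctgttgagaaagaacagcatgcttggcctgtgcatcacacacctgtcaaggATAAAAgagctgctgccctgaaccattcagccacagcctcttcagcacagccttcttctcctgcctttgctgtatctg
Lce1c (chr3:92678997-92679296, plus strand): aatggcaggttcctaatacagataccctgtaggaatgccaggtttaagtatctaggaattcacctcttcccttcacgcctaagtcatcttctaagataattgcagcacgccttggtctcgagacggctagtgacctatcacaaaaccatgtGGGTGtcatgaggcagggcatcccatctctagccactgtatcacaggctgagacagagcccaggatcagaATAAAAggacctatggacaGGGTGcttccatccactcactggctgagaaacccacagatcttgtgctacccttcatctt
Lce1d (chr3:92687161-92687460, minus strand): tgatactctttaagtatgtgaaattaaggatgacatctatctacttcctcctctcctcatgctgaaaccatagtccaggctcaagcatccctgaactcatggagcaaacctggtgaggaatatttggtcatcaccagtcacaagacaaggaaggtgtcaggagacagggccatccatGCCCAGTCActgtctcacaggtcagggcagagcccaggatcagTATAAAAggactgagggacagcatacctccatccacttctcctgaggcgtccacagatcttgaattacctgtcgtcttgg
All of these promoters hold ATAAAA, which starts 29 bases before the start site in Lce3b, Lce1c and Lce1d and 28 bases before it in Lce3c. Of the 20 Lce genes with a promoter in the table, 17 hold it on the plus strand within the stretch that starts 40 to 20 bases before the start site, at positions -31 to -28, whereas 1.74% of all 32851 promoters do. The TATA box itself lies in Lce1d, against 13.6% of all promoters. Among the 10 tested genes with a promoter in the table, Lce3b is the 1 that holds the CCAAT box, which 37.4% of all promoters hold. The antioxidant response element lies in Lce3c, with 2 matches, and in Lce1d, against 12.4% of all promoters, and CACCC lies in Lce1c with 2 matches, against 57.5%. TGANTCA was found in 0 of the 20 Lce promoters and in 7.81% of all. Aligned end to end, pairs of Lce1 promoters shared 48.8% to 86.0% of columns, the Lce3b and Lce3c pair 55.8%, and pairs of 1 Lce1 and 1 Lce3 promoter 46.1% to 51.5%.

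The arrays were checked before any comparison. Krt17, a type I keratin, read -6.48 to 0.81 on the KO arrays and 16655 to 19131 on the wild-type arrays, as the labels require. Krt18, also a type I keratin, read 89.1 to 280 on the KO arrays and 2.24 to 73.4 on the wild-type arrays. The KO cells thus did not lack the RNA of every type I keratin. All 10 keratinocyte markers were above background on at least 3 arrays, and 0 of 5 leukocyte markers were. Among the 10, Krt14 is itself a type I keratin and reached this count through the wild-type arrays. It read -2.90 to 9.28 in KO and 17836 to 19131 in wild type. With Krt14 included, the 10 markers summed to 23827 to 29229 in KO and 48392 to 51327 in wild type. The labels call each array 1.1 a second replica of replicate 1. The SD of the log2 differences between wild-type arrays 1 and 1.1 was 0.205, but KO array 1.1 differed from KO array 1 by 0.640 and from KO array 3 by 0.213. The Y-linked gene Eif2s3y read -2.27 on KO array 1, 1022 on KO array 1.1 and 1065 on KO array 3, so KO array 1.1 went against its label. Wild-type arrays 1 and 1.1 were averaged, and so were KO arrays 3 and 1.1, which gave 3 replicates per genotype (KO replicate 3 and wild-type replicate 1 are such means). Results with the arrays averaged as labelled, and without both 1.1 arrays, stand beside the main ones where they matter. Eif2s3y also read 1248 on KO array 2 and 1186 on wild-type array 2, against -4.02 to -0.18 on the other wild-type arrays. The cells of each genotype thus came from more than 1 embryo. Nothing says how many embryos or cultures gave the replicates, so p-values cover only the spread between these samples.

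Values are intensities on the authors' linear scale, already background-subtracted, so a dark probe can read below 0. A probe counted as above background beyond an intensity of 6.30, a limit that 5% of the noise is taken to pass, and as bright when it was above that limit on at least 3 of the 8 arrays. Of the 17 Lce probes, 9 to 12 were above the limit on the KO arrays and 9 to 13 on the wild-type arrays. In all, 12 probes of 11 genes were bright, and these 11 genes were tested (8 Lce1 genes, Lce3a, Lce3b and Lce3c). Lce1h was below the limit on all 8 arrays and Lce1l was above it on 1 wild-type array at 8.25, while Lce1a2 was above it only on KO arrays 3 and 1.1, at 17.0 and 13.7. The other dim probes were 1 further probe each of Lce1e and Lce3b. Lce sequences resemble each other closely, so signal from a related gene on a probe cannot be told apart from that of its own.

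Lce3c, one of the Lce3 envelope precursors, gave the brightest signal of the tested Lce3 probes in wild-type cells and read lower in KO. It read 213, 523, 616 and 549.5 on KO arrays 1, 2, 3 and 1.1 and 1518, 2129, 967 and 1585 on wild-type arrays 1, 2, 3 and 1.1. Every KO array lay below every wild-type array, with KO array 1 lowest of all. The replicates averaged 439 ± 198 for KO and 1549 ± 581 for wild type (SD, n = 3 per genotype). On the log2(intensity + 16) scale the difference, KO minus wild type, was -1.83 ± 0.42 (SE), with a 95% interval of -2.82 to -0.84, which sets the wild-type level at 3.55 times the KO level. The wild-type replicate with the lowest level lay 0.72 above the KO replicate with the highest level on that scale. The difference did not pass limma's test over all genes (adjusted p = 0.101, unadjusted p = 0.00310).

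Lce3b, its neighbour in the complex, showed the same picture on its brightest probe. It read 169, 389.5, 491 and 511 on KO arrays 1, 2, 3 and 1.1 and 1243, 1557, 751 and 1388 on wild-type arrays 1, 2, 3 and 1.1, again with no overlap of the arrays. The replicates averaged 353 ± 169 and 1208 ± 414 (SD, n = 3 per genotype). The log2 difference was -1.79 ± 0.42 (SE), with a 95% interval of -2.78 to -0.80 and a limma adjusted p of 0.106. A second bright probe for Lce3b also read lower in KO but its arrays overlapped, with 30.7, 122, 132 and 134 on KO arrays 1, 2, 3 and 1.1 against 163, 312, 91.7 and 166 in wild type. Tested in its own right, that probe differed by -0.91 ± 0.53 (SE; limma adjusted p = 0.436). The third Lce3b probe was below the limit on all 8 arrays.

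Among the 9881 genes tested, Lce3c and Lce3b had the 49th and the 55th lowest differences, and 0.557% of all genes differed at least as far below 0 as Lce3b. Ranked by limma's p-value, Lce3c was 303rd and Lce3b 321st. Permuting the genotypes over the 3 and 3 replicates (exact, two-sided) gave p = 0.1 for each gene, the smallest value this design allows. Any gene whose replicates do not overlap between the genotypes gets this value. That held for 22.5% of all genes tested, and for 10.9% with lower levels in KO. With the arrays averaged as labelled, where 2.64% of all genes passed and 1.4% passed with lower levels in KO, Lce3b passed (adjusted p = 0.0459) and Lce3c did not (0.0521), at -1.55 and -1.58. That fit treats KO replicates 1 and 3 as independent, although the agreement above pairs arrays 3 and 1.1. Without both 1.1 arrays the differences were -1.77 and -1.79, with adjusted p values of 0.0987 and 0.103. The difference of both genes stayed below 0 in all 20 alternatives, from -2.12 to -1.35 for Lce3b (adjusted p 0.0189 to 0.330) and from -2.18 to -1.39 for Lce3c (adjusted p 0.0163 to 0.317). All alternatives reuse the same arrays, on which no KO value reached a wild-type one. The sign could therefore hardly turn, and its constancy is no further evidence. RNA of whole cultures was measured, so fewer cells that express a gene and less RNA per cell cannot be told apart.

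Lce3a, the third member of this group, was dim and showed no such gap. It read 9.87, 21.4, 13.6 and 23.5 on KO arrays 1, 2, 3 and 1.1 and 14.5, 17.1, 5.48 and 21.3 on the wild-type arrays. The 2 genotypes overlapped, and the replicates averaged 16.6 ± 6.02 in KO and 13.5 ± 6.94 in wild type (SD). The difference was 0.16 ± 0.23 (SE), with an interval of -0.39 to 0.70. With so dim a wild-type signal and the offset added before the logarithm, even its full loss could not give differences as large as those of Lce3b and Lce3c. The interval is therefore not set against their estimates.

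**Figure D1:**
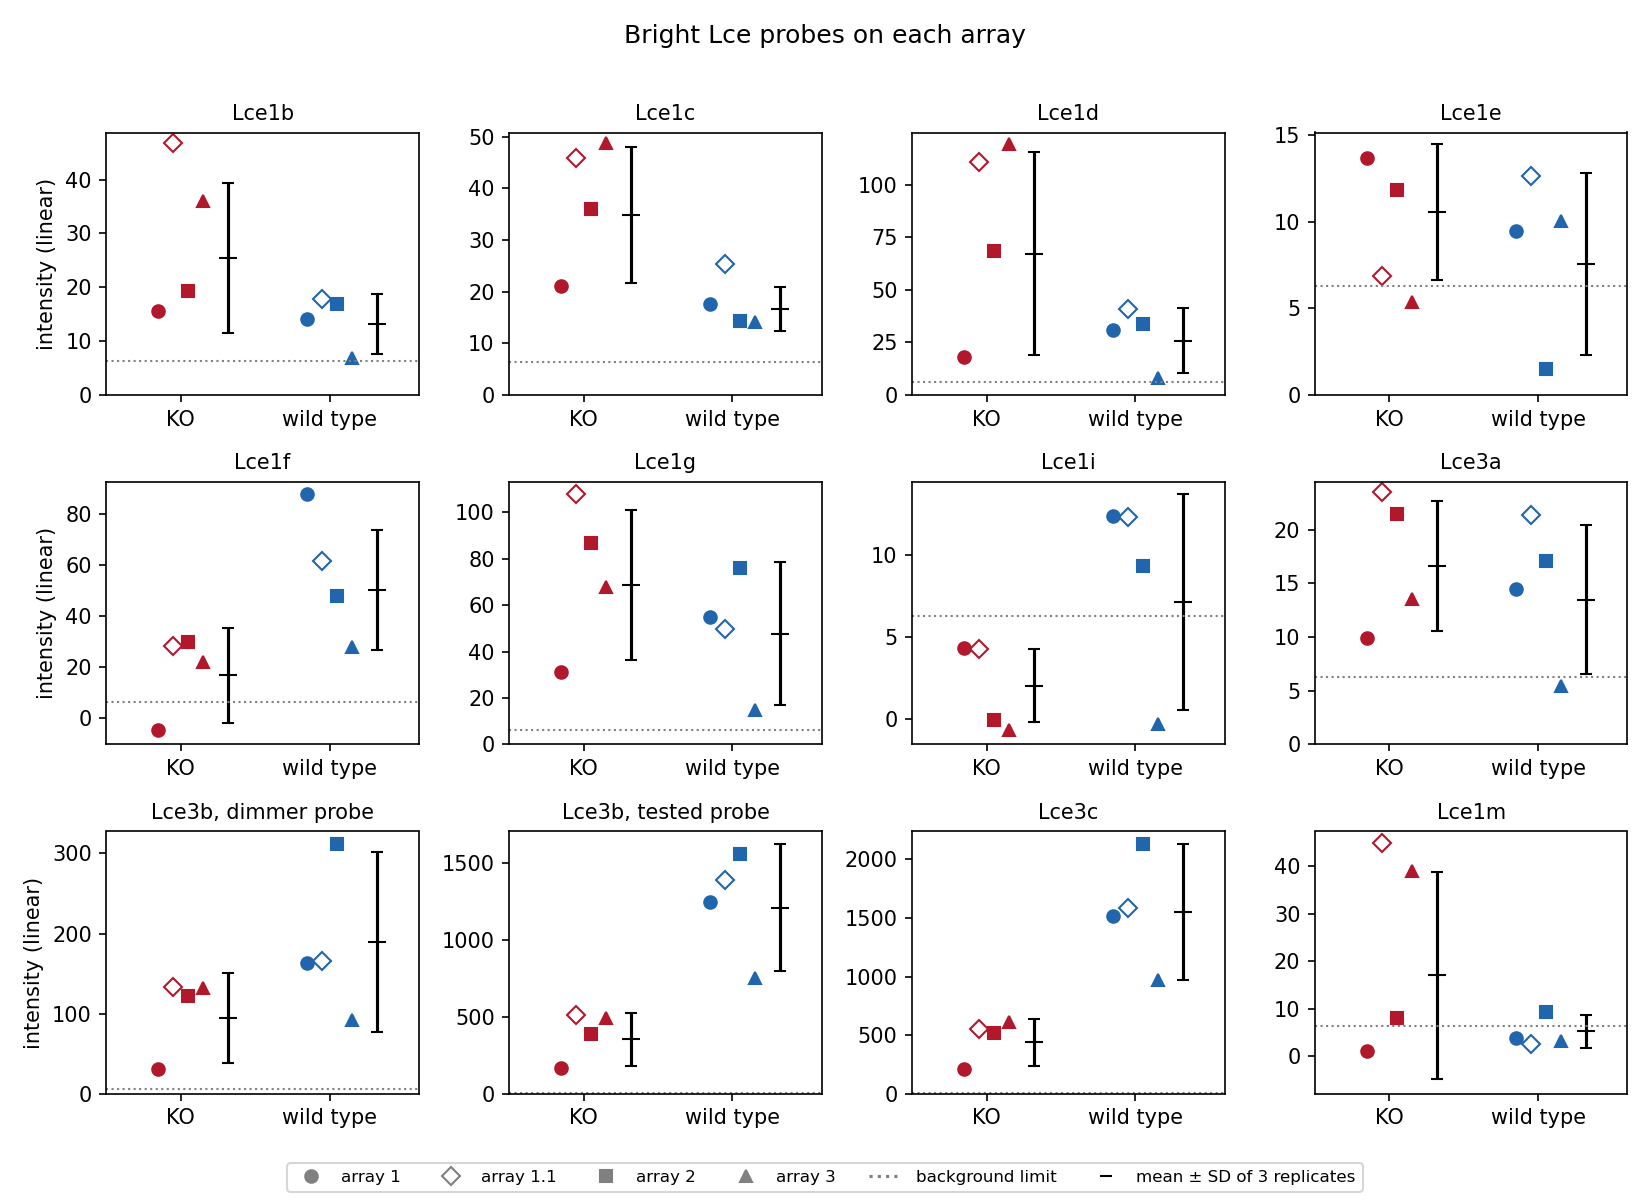
Intensity on a linear scale of each of the 12 bright Lce probes, with 1 point per array (KO in red, wild type in blue, arrays 1.1 open), the mean ± SD of the 3 replicates in black and the background limit as a dotted line. On the tested probes of Lce3b and Lce3c all KO points lie below all wild-type points (at most 511 against at least 751 for Lce3b). On the other probes the genotypes overlap, although for Lce1b, Lce1c and Lce1d most KO points lie above all wild-type points.

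Most tested Lce1 genes read higher in KO, on dimmer probes. Of the 8 tested Lce1 genes, 6 had a higher mean in KO and 2 a lower one, with a median difference of 0.45 on the log2 scale, beside a median of 0.02 for all 9881 genes, of which 52.5% read higher in KO. None passed limma's test. A gene could enter this count through its bright arrays alone, so it describes these 8 genes and not the whole Lce1 group.

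Lce1c had the lowest unadjusted p of these. It read 21.0, 36.0, 48.7 and 45.9 on KO arrays 1, 2, 3 and 1.1 and 17.6, 14.3, 14.2 and 25.4 on wild-type arrays 1, 2, 3 and 1.1. Only wild-type array 1.1 and KO array 1 crossed, and the means were 34.8 ± 13.2 and 16.6 ± 4.19 (SD, n = 3 per genotype). The log2 difference was 0.61 ± 0.22 (SE), with an interval of 0.09 to 1.13 (limma adjusted p = 0.226, unadjusted p = 0.0268).

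Lce1d, its direct neighbour, read 18.2, 68.4, 119 and 111 on KO arrays 1, 2, 3 and 1.1 and 30.7, 33.8, 8.11 and 40.9 in wild type. KO arrays 2, 3 and 1.1 were above every wild-type array, but KO array 1 lay below 3 of them. The difference was 0.87 ± 0.51 (SE; adjusted p = 0.443), and it was 1.41 without KO replicate 1, 0.44 without KO replicate 3 and 0.51 without wild-type replicate 3. Lce1b, at the start of the run, read 15.5, 19.4, 36.0 and 46.8 in KO and 14.0, 16.9, 6.81 and 17.8 in wild type, in the same order of arrays. KO arrays 3 and 1.1 stood above the rest, and the difference was 0.47 ± 0.26 (SE; adjusted p = 0.415), or 0.21 without KO replicate 3 and 0.30 without wild-type replicate 3.

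In Lce1g the intensities were 31.2, 86.9, 67.7 and 108 in KO and 55.0, 76.0, 14.8 and 49.7 in wild type, for arrays 1, 2, 3 and 1.1. Both genotypes spanned a wide range, and the difference of 0.45 ± 0.46 (SE) had an interval of -0.63 to 1.53. Lce1m, at the far end of the row, read 1.06, 8.12, 39.0 and 44.8 in KO and 3.92, 9.24, 3.19 and 2.66 in wild type. Its signal stood out on KO arrays 3 and 1.1 only, as did that of Lce1a2, and without KO replicate 3 its difference was -0.054 in place of 0.45. Lce1e stayed near the limit, at most 13.7 in KO and 12.7 in wild type, was above it on 3 arrays of each genotype, and differed by 0.19 ± 0.22 (SE).

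Lce1f and Lce1i were the Lce1 genes with lower means in KO. Lce1f read -4.51, 29.8, 21.9 and 28.3 on KO arrays 1, 2, 3 and 1.1 and 87.9, 48.0, 27.9 and 61.7 on the wild-type arrays. It was below the limit on KO array 1, and wild-type array 3 was the only wild-type array within the KO range. The difference was -1.18 ± 0.54 (SE), with an interval of -2.44 to 0.07 (limma adjusted p = 0.315), and without KO replicate 1 it was -0.55. Lce1i was above the limit on 3 wild-type arrays, at 9.35 to 12.4, and on no KO array, where it read -0.64 to 4.35, too close to the limit for a fold.

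**Figure D2:**
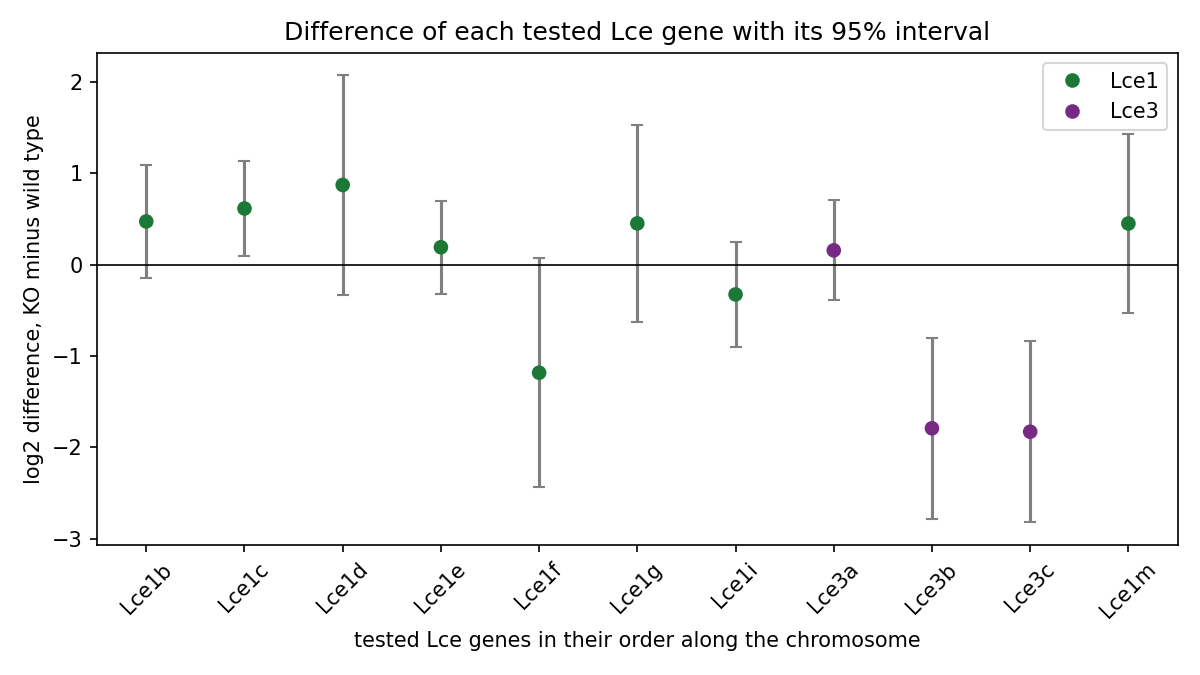
Log2 difference, KO minus wild type, of the 11 tested Lce genes in chromosomal order, with 95% intervals from limma (Lce1 green, Lce3 purple). The intervals of Lce3b and Lce3c lie wholly below 0, that of Lce1c lies just above 0 from 0.09 to 1.13, and the other 8 cross it.

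Counted together, 0 of the 11 tested Lce genes passed at an adjusted p under 0.05, beside 0.708% of all 9881 genes (0.293% with higher and 0.415% with lower levels in KO). Without adjustment 3 of the 11 had p under 0.05 (Lce3b, Lce3c and Lce1c), beside 17.1% of all genes, and the replicates of the 2 genotypes did not overlap in 2 of the 11, beside 22.5%. The median difference of the 11 was 0.19, and over all 17 Lce probes without any filter it was 0.16. That median hides the opposite signs within the family. Lce3b and Lce3c averaged 7.68, 8.87 and 9.12 on the log2 scale across KO replicates 1, 2 and 3, against 10.50, 10.84 and 9.76 across the wild-type replicates. The mean of the 8 Lce1 genes was 4.71, 5.35 and 5.67 in KO and 5.29, 5.20 and 4.67 in wild type. The gap between these means was 2.97 to 3.51 in KO and 5.09 to 5.65 in wild type. The members were grouped after their values were known, so these means are a description and carry no test.

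Within each genotype most tested Lce genes ranked the replicates alike. KO replicate 1 was the lowest KO replicate in 9 of the 11 tested genes, beside 28.5% of all genes, and wild-type replicate 3 was the lowest wild-type replicate in 10 of the 11, beside 36.7%. By mean intensity, KO replicate 3 was the highest KO replicate in 7 of the 11. On the log2 scale, where it was highest in 31.1% of all genes, Lce1g leaves this group (6.671, against 6.685 in KO replicate 2). Lce1e and Lce1i were the genes in which KO replicate 1 was not the lowest, and it was highest in both. These counts come from the same few arrays and are not independent. Other measures set the same replicates apart. The summed intensity of 10 fibroblast markers was highest on KO array 1 among KO arrays (704, against 354 to 454 on the others) and on wild-type array 3 among wild-type arrays (1294, against 183 to 657), with 8 of the 10 above the limit on at least 3 arrays and Col1a2 on none. Eif2s3y read -2.27 on KO array 1 and -0.18 on wild-type array 3, but also -4.02 on wild-type array 1, where the Lce genes were not low. The summed intensity of 4 simple epithelium markers was 2402 and 2152 on KO arrays 3 and 1.1 against 112 to 446 on the other 6 arrays, with 3 of the 4 above the limit on at least 3 arrays and Krt19 on none. The summed intensity of 6 melanocyte markers, all above the limit on at least 3 arrays, was lowest on these KO arrays, at 355 and 415, against 1231 and 1614 on the other KO arrays and 916 to 3469 in wild type. The part of these marker signals in the Lce levels was not tested. With the presence of Eif2s3y as a covariate, a choice made after the data were seen, Lce3c passed at -2.18 (limma adjusted p = 0.0305) and Lce3b did not at -2.12 (adjusted p = 0.0529).

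The 5 other tested genes whose log2 profile over the 6 replicates was most like the mean centred profile of the 11 Lce genes were Dync1i2, Sprr2f, Hspa5, Ptpn11 and Pir. Their Pearson r with it was 0.989, 0.982, 0.982, 0.979 and 0.971, picked as the highest of all genes and given with no test, since all profiles share the same arrays. Sprr2f, a small proline-rich envelope precursor of the same complex, read 2.02, 42.1 and 152 across the KO replicates and 114, 109 and 15.4 across the wild-type ones, each in the order 1, 2, 3. Dync1i2, a dynein intermediate chain, spanned a narrower range, from 2074 in KO replicate 1 to 2646 in wild-type replicate 2. Neither passed limma's test between the genotypes (adjusted p = 0.810 and 0.893).

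The neighbours of the Lce genes in the epidermal differentiation complex were read from a list of other genes of the complex, 18 of whose 23 genes on the array were bright. None passed limma's test in either direction, 1 of the 18 had an unadjusted p under 0.05, 6 had a positive and 12 a negative difference, and the median was -0.08. Over all genes tested 0.708% passed, 17.1% had an unadjusted p under 0.05, 52.5% were positive and the median was 0.02. The largest differences were those of Ivl (involucrin, an early envelope scaffold), at 1.79 ± 0.69 (SE; limma adjusted p = 0.249), and Sprr2k, at 1.36 ± 0.67 (adjusted p = 0.352). On the log2 scale these 18 genes averaged 8.92 for KO replicate 3 but 6.24 and 6.88 for the other KO replicates, and 7.45, 7.69 and 6.52 for wild-type replicates 1, 2 and 3. KO replicate 3 was thus the highest replicate for its neighbours and yet lay below all wild-type replicates for Lce3b and Lce3c. Loricrin, the main envelope protein, shows this replicate plainly, with 2893 and 3181 on KO arrays 3 and 1.1 and 167 to 375 on the other 6 arrays.

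**Figure D3:**
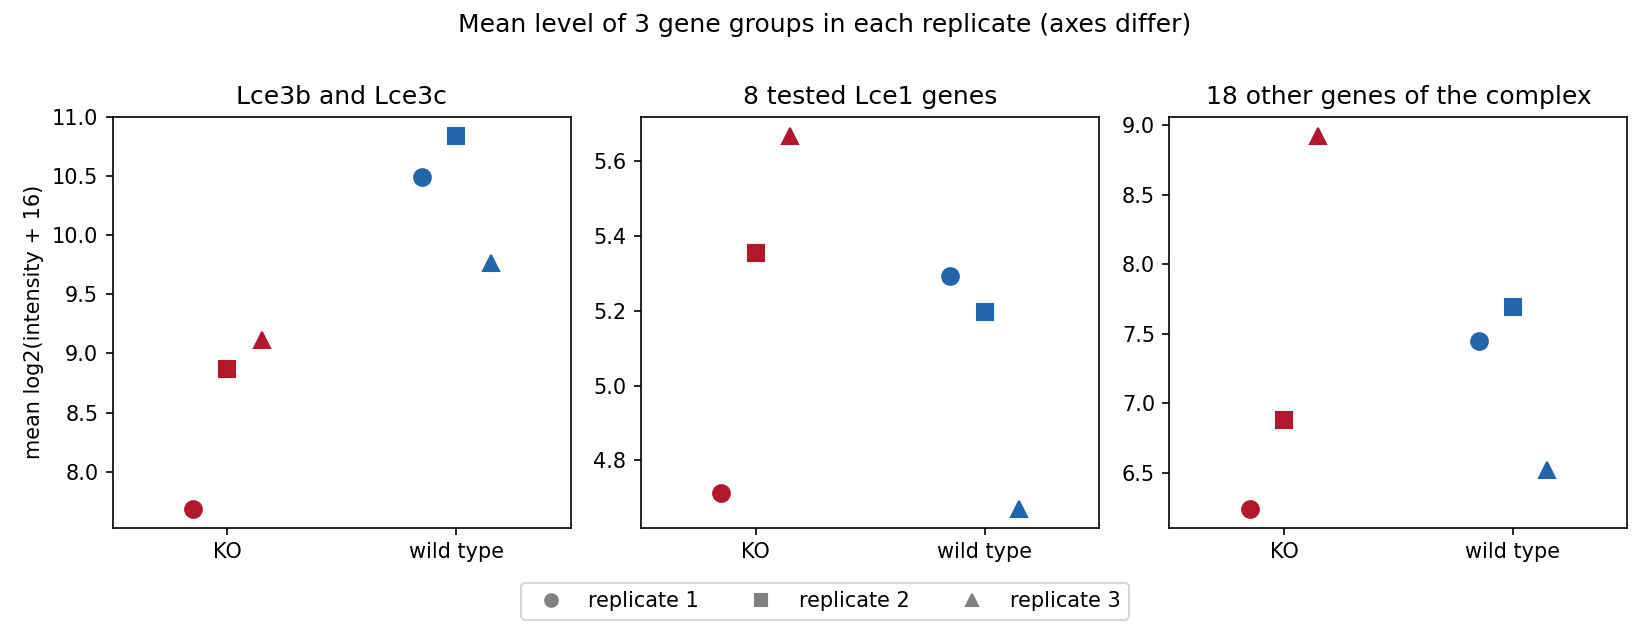
Mean log2(intensity + 16) in each replicate (KO red, wild type blue) of Lce3b and Lce3c, of the 8 tested Lce1 genes and of 18 other genes of the epidermal differentiation complex, on axes that differ between panels. In the first panel the KO replicates reach at most 9.12 and the wild-type replicates start at 9.76, while in the other panels KO replicate 3 is the highest point and the genotypes overlap.

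Of 27 genes on the array for envelope assembly and late epidermal functions, 23 were bright, and again none passed limma's test in either direction (8 positive, 15 negative, median -0.34, with 4 of 23 at an unadjusted p under 0.05). Among all genes these shares were 0.708% called and 17.1% at an unadjusted p under 0.05. Calm4, an epidermal calmodulin relative, differed by -2.29 ± 1.04 (SE), and read 61.5, 48.4 and 931 across the KO replicates, the last of which lay between the lowest and highest wild-type values, 466 and 1929. Cnfn (cornifelin, an envelope component) differed by 1.87 ± 0.75, with 51.8, 84.3 and 584 across the KO replicates and 33.1, 38.5 and 15.6 across the wild-type ones (limma adjusted p = 0.261). Tgm1, the transglutaminase that cross-links envelope proteins, differed by 0.76 ± 0.49 and is named for that role, outside the naming rule.

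Of 31 regulators of late differentiation on the array, 25 were bright. Pou3f1, a POU transcription factor of suprabasal keratinocytes, was the 1 member that passed, and it fell by 1.94 ± 0.24 (SE) on the log2 scale (limma adjusted p = 0.0264). It read 85.9, 86.0, 60.0 and 53.7 on KO arrays 1, 2, 3 and 1.1 and 446, 347, 249 and 414 on the wild-type arrays, with no overlap. Its call was lost in the fits without KO replicate 1 or 2, without wild-type replicate 1 or 2, and with the Eif2s3y covariate. The list had 8 positive and 17 negative differences with a median of -0.34, and 8 of the 25 had an unadjusted p under 0.05, beside 17.1% of all genes, of which 0.708% were called.

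**Figure D4:**
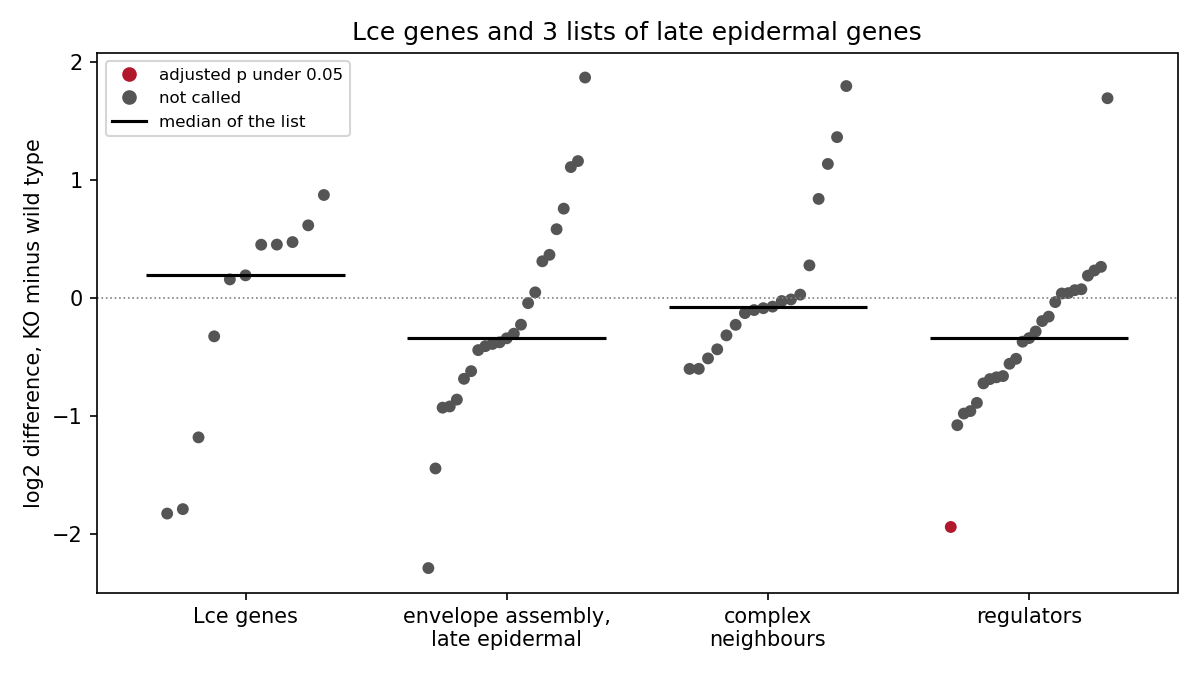
Log2 difference, KO minus wild type, of each tested Lce gene and of each tested gene of 3 lists of late epidermal genes, sorted within each list, with the list's median as a line and called genes in red. Pou3f1 among the regulators, at -1.94, is the 1 called gene, and the lowest Lce genes are Lce3c and Lce3b, at -1.83 and -1.79, followed by Lce1f, at -1.18, and by the others between -0.33 and 0.87.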

How the data were processed

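Total RNA was biotin-labelled for Illumina arrays, per the labels' protocols. The deposited table holds an intensity for every probe on each array, on a linear scale. The authors' own processing steps are not given in the sources used here. Its values are background-subtracted (27.1% to 27.3% below 0 on each array) and share 1 minimum, upper quartile and maximum, as quantile normalization leaves them. A second table was left out because its 16 value columns match no sample label, although its headers name 6 samples, 2 of them repeated.

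The background limit left 5% of the negative values, mirrored around 0, above it. Intensities plus 16 were put on the log2 scale, so folds of dim genes are understated, and bright probes were kept, 1 per gene by highest mean (9881 genes). limma (lmFit, eBayes) compared 3 KO with 3 wild-type replicates, with Benjamini-Hochberg adjustment over all genes, and adjusted p values are limma's. The fit was checked on simulated data whose noise was independent between genes, so effects that many genes of a replicate share were not covered. Gene symbols of probes follow GEO's platform annotation and can be outdated. No build is named for the arrays. The number of arrays limits precision. RefSeq promoters (GRCm38.p6) were searched for motifs. Members, lists and the averaging of arrays were chosen with earlier results of these data known. The fixed rule named all bright Lce genes, the called or otherwise the 2 most changed genes of each of the 3 lists, and the 5 nearest profiles. Alternatives covered array averaging, a block, offset, filters, prior, weights, centring and left-out replicates. R 4.3.3, limma 3.58.1 and matplotlib 3.10.9 were used.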

Additional observations from a re-analysis of the deposited data

How the results depend on the processing

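No Lce gene was called in 16 of 20 alternatives. Averaging the arrays as labelled called 1 Lce gene (Lce3b), 261 genes in all and 3 regulators (Fosl1, Notch1, Pou3f1). Treating all 8 arrays as separate samples, which counts repeated arrays as independent, called 2 Lce genes (Lce3b, Lce3c), 965 genes, 2 late epidermal genes and 6 regulators. Array weights called 2 Lce genes (the same pair), 940 genes, 4 late epidermal genes and 7 regulators, and the Eif2s3y covariate, added later, 1 Lce gene (Lce3c), 40 genes and 0 regulators. Testing every bright probe called 108 probes, and ribosomal centring 46 genes. A replicate block called 21 genes and no Lce gene (adjusted p 0.207 for Lce3b and 0.179 for Lce3c). Deviations of same-numbered replicates correlated at 0.05, 0.03 and -0.34, so the numbers do not pair the samples. Leaving out 1 replicate at a time gave 5 to 264 genes, 0 Lce genes each time, 0 to 2 late epidermal genes and 0 to 4 regulators. The lowest of these, 5 genes, came without wild-type replicate 1, and the highest without KO replicate 3. Differences turned sign without KO replicate 3 for Lce1m (-0.0542), without wild-type replicate 2 for Lce1e (-0.0103) and without wild-type replicate 3 for Lce1g (-0.0032) and Lce3a (-0.0565), none of them called, with highest values of 0.826, 0.316, 0.823 and 0.312 in the same order. The median over tested Lce genes ran from -0.0032 to 0.31. The cause of these changes was not tested. Groups of 3 replicates were too small for a search for outlying samples, and dim probes near the limit of 6.30 have no reliable order.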

Other observations

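Among the regulators of late differentiation, named here after their values were seen, several had replicates that did not overlap between the genotypes although limma's adjusted p missed the threshold. Cebpb, a factor of spinous differentiation, read 1619, 1223, 2104 and 2072 on KO arrays 1, 2, 3 and 1.1 and 3305, 3121, 2991 and 3624 on wild-type arrays 1, 2, 3 and 1.1 (adjusted p = 0.0906). Nfe2l2, which encodes the factor that binds the antioxidant response element, read 146 to 199 in KO and 241 to 322 in wild type (adjusted p = 0.116). Fosl1, an AP-1 subunit, went the other way, with 94.0 to 185 in KO and 19.3 to 65.9 in wild type (adjusted p = 0.0773). In all, 8 of the 25 regulators had no overlap, beside 22.5% of all genes tested.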
